A study of Rattus norvegicus with 4 samples.

Results

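Xbp1, Ddit3, Dnajb9, Calr and Trib3 take part in the unfolded protein response, the programme with which a cell answers an overload of the endoplasmic reticulum. The array held 1 probe for each of them, so they are 5 of its 1936 probes and 5 of the 1432 probes that the platform annotation gives a single gene symbol. The probes were taken by symbol alone, as every single-symbol probe of these 5 genes. The choice of the 5 genes was made with earlier results of these data known. The samples were liver RNA of male Sprague-Dawley rats of 250 to 300 g, whose age the labels do not give. Ligated rats had the common bile duct tied under ether anaesthesia, and sham rats had the same duct exposed but not tied. Both were killed 1 h later in groups of 3, and RNA of their right lateral liver lobes was mixed, so each array compared 1 ligated pool with 1 sham pool. The labels do not say whether arrays shared a pool, so errors describe the spread between 4 arrays and not between animals. Arrays 1 and 3 had the ligated pool in Cy5, and on arrays 2 and 4 the dyes were swapped.

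Hepatocytes make most proteins of the blood plasma and fold them in a large endoplasmic reticulum. When unfolded protein builds up there, the membrane sensors IRE1, PERK and ATF6 are activated. IRE1 splices the mRNA of Xbp1 so that it encodes an active transcription factor, PERK slows translation and raises ATF4, which induces Ddit3 and Trib3, and ATF6 is cut to a free transcription factor. Their targets include the chaperones that refold protein in the lumen. XBP1 is also needed for normal lipid synthesis in liver.

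The response is read at short promoter elements, and one of them is shown first because Xbp1, the member called lower after ligation, carries it. The endoplasmic reticulum stress element (ERSE) has the letters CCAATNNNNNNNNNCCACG, in which NF-Y binds CCAAT and ATF6 binds CCACG. It was searched on both strands of the RefSeq promoters of assembly GRCr8, which run from 250 bases before to 50 after a start site, and all 5 members were found there. Of 33469 promoters 22 (0.0657%) held it, and among the 5 members Xbp1 and Calr did. The stretches below run 5′ to 3′ on the gene's strand, with the ERSE match in capitals. The Xbp1 stretch is chr14:84604473-84604622, plus strand, positions -150 to -1 from the start site. The Calr stretch is chr19:40213117-40213266, plus strand, positions -250 to -101, and its match is on the opposite strand.
Xbp1: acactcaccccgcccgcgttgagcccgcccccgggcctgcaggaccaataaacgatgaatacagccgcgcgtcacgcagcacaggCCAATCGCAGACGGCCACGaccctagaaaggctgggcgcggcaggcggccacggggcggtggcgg
Calr: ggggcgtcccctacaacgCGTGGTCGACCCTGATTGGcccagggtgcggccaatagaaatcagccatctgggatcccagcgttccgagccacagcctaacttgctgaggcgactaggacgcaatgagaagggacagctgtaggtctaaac

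The match in Xbp1 lies at -65 to -47 and that in Calr at -232 to -214. Neither the ERSE-II letters ATTGGNCCACG (0.0508% of promoters) nor the XBP1-binding core TGACGTGG (0.595%) occurred in the windows of the 5 members. The letters TGATGNAA, which ATF4 with C/EBP partners can bind, occurred in 3.98% of promoters and in Trib3 alone among the members, on the opposite strand at -21 to -14. No motif overlapped another in these windows apart from the CCAAT and CCACG parts of the ERSE itself. Of the 780 genes measured on the array that have a promoter sequence in this table, 3 held the ERSE letters: Xbp1, Calr and Creld2, a chaperone-like disulfide protein of the endoplasmic reticulum. A match is a description of letters and not of a bound site.

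The values are log ratios whose base is not given in the sources used here, read as ligated over sham because the labels give sham as channel 1 and ligated as channel 2 without saying which was divided by which. If they were sham over ligated, every sign below would turn. They hold no levels, so abundance could not be compared between genes and the tissue could not be checked by its markers. The array medians were -0.88, 0.75, -0.73 and 0.87 on arrays 1 to 4, and so followed the dye of the ligated pool. Each array was centred on its median. Each probe was then fitted with 2 terms, operation and dye (limma, Benjamini-Hochberg adjustment over all 1936 probes, threshold 0.05). The dye term, called the dye effect here, is the mean of the arrays with ligated RNA in Cy5 minus the mean of those with Cy3, divided by 2. Errors of estimates are standard errors (SE, n = 4 arrays). They rest mostly on a spread that limma shares over all probes (76.2 prior against 2 residual degrees of freedom per probe), and little on a probe's own 4 values. Centring changed every estimate by the same 0.0046, since the array medians nearly cancel over the dye swap. With all 4 arrays the dye term leaves the estimate as it is and changes only the error. What centring changed more was the error: the median SE over probes was 0.084 with centring and 0.059 without.

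Of the 5 members, 1 passed, Xbp1, which was lower after ligation, and 0 were called higher. Over all probes 5.73% passed, 4.80% as lower and 0.930% as higher. The other members had estimates between -0.12 and 0.084, and their 95% intervals reached no further than -0.29 and 0.25. Differences between members are given, with their test, after the single members.

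**Figure D1:**
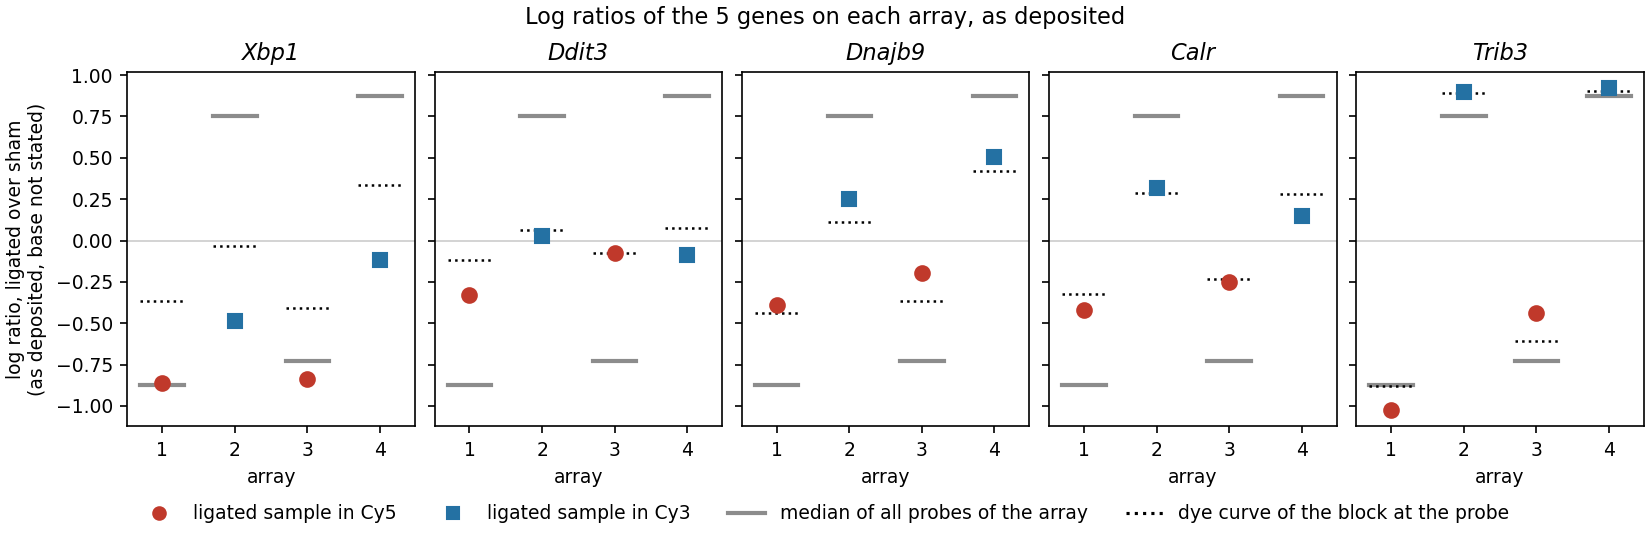
Deposited log ratio (ligated over sham, base not stated) of each gene on arrays 1 to 4, with the median of all probes of the array (grey bar) and the dye curve of the probe's block (dotted). Xbp1 lies below 0 on all 4 arrays, from -0.86 to -0.12, while the points of Dnajb9, Calr and Trib3 change side with the dye.

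Xbp1 encodes the transcription factor that, once its mRNA is spliced by IRE1, drives chaperone, secretory and lipid genes. Its probe (number 450, gene ID 289754) had deposited log ratios of -0.86, -0.48, -0.83 and -0.12 on arrays 1 to 4. All 4 were below 0, a pattern shared by 5.94% of all probes, and the arrays with ligated RNA in Cy3 lay higher than those in Cy5 (means -0.30 and -0.85). Arrays of the same dye differed by 0.024 (Cy5) and 0.37 (Cy3). After centring the values were 0.017, -1.24, -0.11 and -0.99. On that scale the low values stood on arrays 2 and 4, and arrays 1 and 3 lay near the array median. The estimate was -0.58 ± 0.084 (adjusted p = 4.57e-07), which is 1.49-fold lower if the log base is 2 and 3.78-fold if it is 10. The table gives 1 value for the gene, so spliced and unspliced mRNA cannot be told apart, and in bulk tissue fewer cells of a type cannot be told apart from less RNA per cell.

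That estimate was the third lowest of 1936 probes, after Crp (-0.61) and Mapk14 (-0.60), and the lowest of the 121 probes of its block. Blocks here are 16 stretches of 121 probes each, in the order of the probe numbers. Blocks 3 and 4 held 60 and 11 of the 93 probes called lower. The probes of Crp and Mapk14 named above both lie in block 3. Xbp1 lies in block 4, whose median estimate was -0.14, against -0.29 in block 3 and between -0.10 and 0.066 in the others. Array 2 stood apart there: its median log ratio as deposited was -0.11 in block 3 and 0.42 in block 4, against 0.58 to 1.10 in the other blocks. Array 4, of the same dye, had 1.00 and 0.79, within the 0.62 to 1.00 of the other blocks. Without array 2 Xbp1 was at -0.52 and passed. Centred on block medians instead, Xbp1 was at -0.46 ± 0.043 (adjusted p = 0.000885), where 4.49% of all probes passed.

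**Figure D2:**
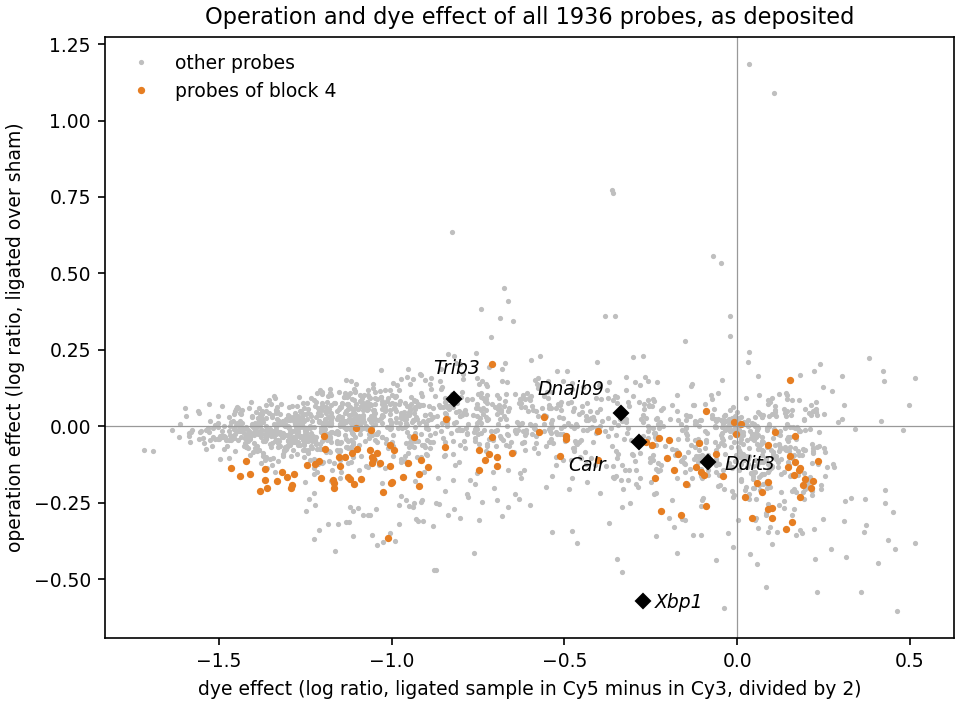
Operation effect (vertical) against dye effect (horizontal) of all 1936 probes on deposited log ratios, with block 4 in orange and the 5 genes as diamonds. Xbp1 lies below the other probes of its block at -0.57, while the other 4 genes lie inside the cloud at operation effects from -0.12 to 0.089.

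The dye effect differed from probe to probe, so a smooth curve of each array's values on the dye effect was also taken out within each block. At the place of Xbp1 these curves stood at -0.37, -0.035, -0.41 and 0.34 on arrays 1 to 4. The probe lay below them by -0.49, -0.45, -0.43 and -0.45. A probe's own dye effect is the horizontal axis of the curve, so the means of the 2 dyes become nearly equal for every probe by construction (the median size of the dye effect fell from 0.45 on centred values to 0.0013). Agreement between dyes after the curve therefore shows nothing about the dye swap, and the curve gives a probe's distance from the probes of its block with a like dye effect. The estimate was -0.45 ± 0.035 (adjusted p = 1.26e-05), the second lowest of all probes after an unnamed one at -0.47. Xbp1 was again the only member that passed, where 7.02% of all probes did, 3.36% as lower and 3.67% as higher. Among the 958 genes, with probes of a gene averaged, Xbp1 was the lowest after the curve (-0.45), followed by Prdx6 (-0.33) and Serpina3n (-0.32). P-values after the curve do not count the degrees of freedom the curve uses.

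The estimate lay from -0.64 to -0.45 in every fit of the ligated over sham reading, but the call did not hold. Part of this was fixed in advance. Without the dye term, with a robust prior and in the sign-flip test the estimate is the same mean, -0.58. Leaving out the centring could move it by 0.0046 only. The fits with block medians, dye curves, scaled arrays or 1 array left out could change it more. Fitted as deposited, without centring, Xbp1 had -0.57 ± 0.075 with an unadjusted p of 0.000903 and a limma adjusted p of 0.133. In that fit the prior fell to 2.60 degrees of freedom, and 0.155% of all probes passed, none of them lower. A dye curve over the whole array gave -0.54 ± 0.073 (adjusted p = 0.103), with 0.362% of probes called and none lower. An exact sign-flip permutation test of the 4 centred values gave p = 0.25 (two-sided), where 4 arrays cannot go below 0.125. That test has no dye term. Centring had brought array 1 to 0.017, just above 0, while all 4 deposited values were below 0.

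Ddit3 encodes CHOP, the transcription factor induced through PERK and ATF4 that promotes cell death under lasting stress. Its probe (702, gene ID 29467) had deposited log ratios of -0.33, 0.026, -0.074 and -0.088. Of these 3 were below 0, with array 1 the lowest and a range of 0.11 over the other arrays. The estimate was -0.12 ± 0.084 (adjusted p = 0.643). After the dye curve per block the values were -0.21, -0.036, 0.0034 and -0.16, and the estimate was -0.10 ± 0.043 (adjusted p = 0.214). Ddit3 had the weakest dye effect of the 5 as deposited, -0.085, against a median of -0.81 over all probes. On centred values, which the main estimate uses, its dye effect was the strongest of the 5, 0.72. It was at -0.21 ± 0.049 when centred on block medians, where it did not pass either (adjusted p = 0.0522).

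Dnajb9 encodes ERdj4, a J-domain cochaperone of BiP in the endoplasmic reticulum whose gene is a known target of spliced XBP1. Its probe (843, gene ID 24908) had deposited log ratios of -0.39, 0.25, -0.20 and 0.50. They were below 0 on both arrays with ligated RNA in Cy5 and above 0 on both in Cy3. The estimate was 0.037 ± 0.084 (adjusted p = 0.991). After the dye curve per block the values were 0.051, 0.14, 0.17 and 0.081, with the means of the dyes made alike by the curve. That estimate, 0.11 ± 0.037, had the opposite sign to that of Xbp1 and did not pass (adjusted p = 0.112).

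Calr encodes calreticulin, the lectin chaperone and calcium store protein of the lumen, and carries the ERSE shown above. Its probe (609, gene ID 64202) had deposited log ratios of -0.42, 0.32, -0.25 and 0.15. Again both Cy5 arrays were below 0 and both Cy3 arrays above. The estimate was -0.056 ± 0.084 (adjusted p = 0.971; 95% interval -0.22 to 0.11), and with the block curves taken out it was -0.057 ± 0.039 (adjusted p = 0.489). The values after the curve were -0.098, 0.027, -0.019 and -0.14, which lie on both sides of 0.

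Trib3 encodes a pseudokinase that is induced by ATF4 and CHOP and binds Akt. Its probe (2, gene ID 246273) had deposited log ratios of -1.03, 0.90, -0.44 and 0.92. These followed the array medians most closely of the 5, with a dye effect of -0.82. The arrays with ligated RNA in Cy5 differed from each other by 0.59, more than those of any other member, and those in Cy3 by 0.021. The estimate was 0.084 ± 0.085 (adjusted p = 0.877). After the dye curve per block the values were -0.15, 0.010, 0.17 and 0.017, and the estimate was 0.012 ± 0.048 (adjusted p = 0.927), with arrays 1 and 3 on opposite sides of 0.

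**Figure D3:**
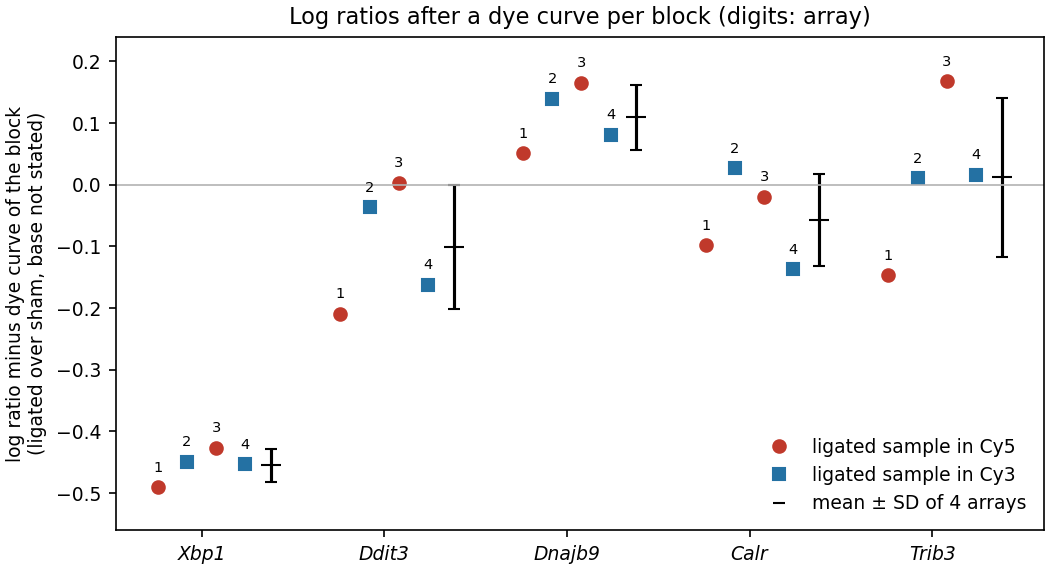
Log ratio minus the dye curve of the block for each gene, with the array as a digit, the dye of the ligated pool as colour and shape, and the mean ± SD of 4 arrays; the curve makes the means of the dyes nearly equal by construction. The 4 values of Xbp1 lie between -0.49 and -0.43 and do not overlap those of the other genes, which lie between -0.21 and 0.17.

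Differences between 2 members on the same array do not depend on a shift of the whole array, such as centring on its median. They do change with centring on block medians where the members lie in different blocks, and only Ddit3 and Calr share a block. As deposited, Xbp1 minus Dnajb9 was -0.47, -0.74, -0.64 and -0.62 on arrays 1 to 4, with a mean of -0.62 ± 0.11 (SD, n = 4). Xbp1 was lower than Dnajb9 by a similar amount on every array. Xbp1 minus Calr was -0.44, -0.80, -0.58 and -0.26 (mean -0.52 ± 0.23). Xbp1 minus Ddit3 was -0.53, -0.51, -0.76 and -0.027 (mean -0.46 ± 0.31), so on array 4 these probes hardly differed. Against Trib3 the difference was below 0 on 3 of 4 arrays (mean -0.66 ± 0.69). After the dye curve per block the mean differences of Xbp1 were -0.35 (Ddit3), -0.40 (Calr), -0.47 (Trib3) and -0.56 (Dnajb9). Of the 10 pairs, the first 3 named here had an exact sign-flip p of 0.125, the smallest that 4 arrays allow, and 0.417 after adjustment over the pairs. The pair with Trib3 had p = 0.25 (exact), and the 6 pairs without Xbp1 had exact p-values from 0.5 to 0.875 as deposited. After the curve, which removes most of the spread between dyes by construction, 7 pairs had an exact p of 0.125 (0.179 adjusted over the pairs): the 4 with Xbp1, and Ddit3 with Dnajb9, Ddit3 with Trib3 and Dnajb9 with Calr. A difference of 1 sign on all arrays after the curve thus did not set Xbp1 apart.

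Read as Cy5 over Cy3, with arrays 2 and 4 turned, the result is another one. The estimates on centred values were then 0.53 for Xbp1, 0.72 for Ddit3, 0.47 for Dnajb9, 0.52 for Calr and -0.014 for Trib3. The first 4 of them passed as higher, in a fit where 82.6% of all probes passed and 42.1% passed as higher, so a call in that reading sets no member apart from the array. Without centring the same reading gave -0.27, -0.085, -0.34, -0.28 and -0.82, all below 0, where 73.0% of all probes passed as lower. The sign of Xbp1, Ddit3, Dnajb9 and Calr in this reading thus turned with centring. Centring moves all probes of a reading by the same amount, which was 0.0046 in the ligated over sham reading. That amount follows from the array medians and says nothing about the members or about which reading is right.

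**Figure D4:**
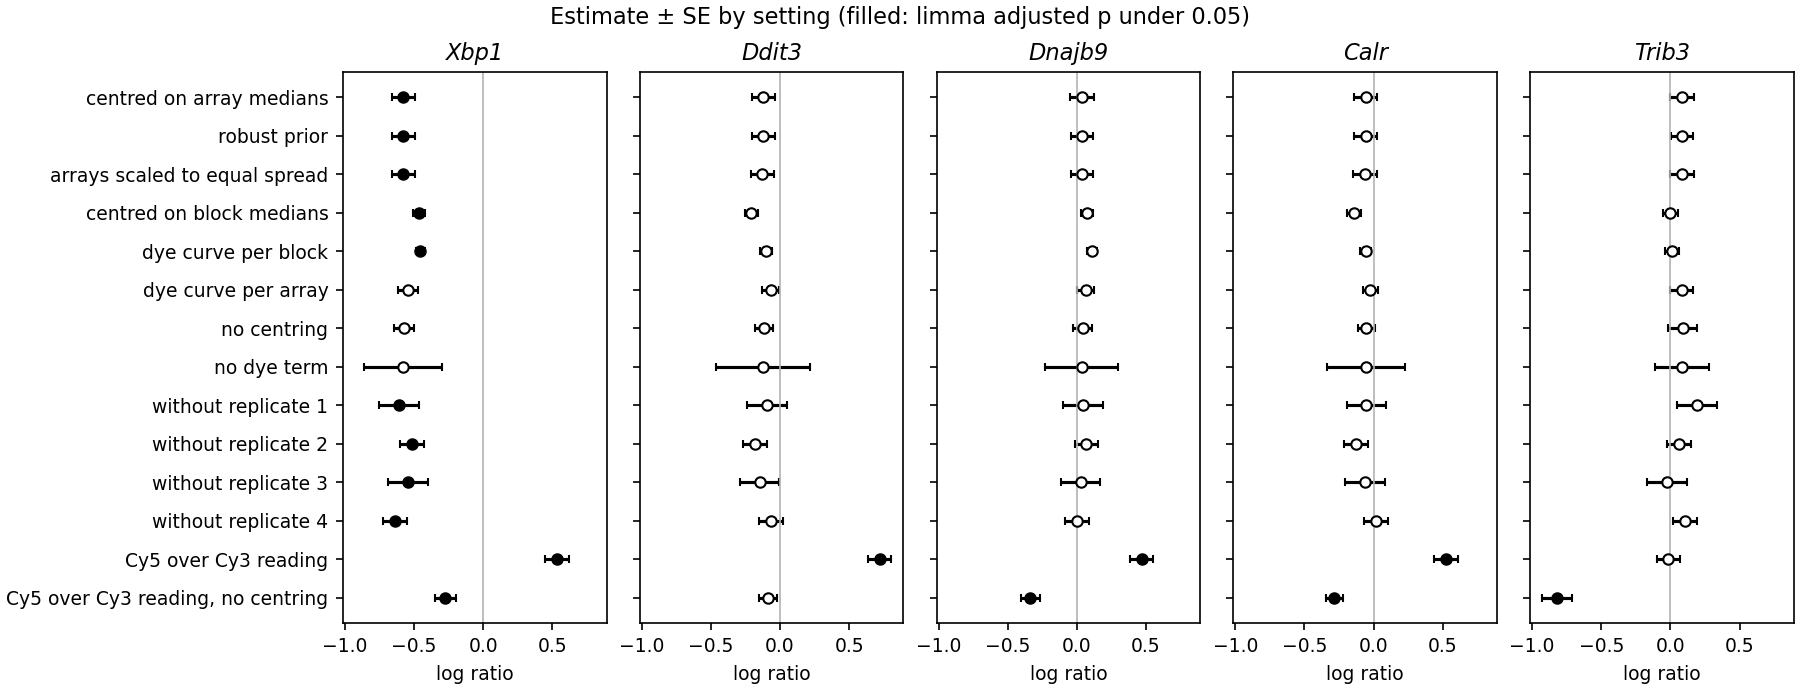
Estimate ± SE of the operation effect (log ratio, base not stated) for each gene under each setting, filled where the limma adjusted p was under 0.05. Xbp1 stays between -0.64 and -0.45 in all settings but the bottom pair, which take them as Cy5 over Cy3, and the other genes pass in that reading only.

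Without 1 array at a time, Xbp1 passed in each of the 4 fits, with estimates from -0.64 (without array 4) to -0.52 (without array 2) and adjusted p-values from 1.46e-11 to 0.0269. In these fits all probes share 1 SE, 0.144 without array 1 or 3 and 0.0864 without array 2 or 4. The others passed in none of them. Their ranges were -0.18 to -0.063 for Ddit3, 0.0047 to 0.070 for Dnajb9, -0.13 to 0.016 for Calr and -0.026 to 0.19 for Trib3. The sign of Calr turned without array 4 (0.016), and that of Trib3 without array 3 (-0.026).

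To set the members beside the rest of their pathway, 107 genes of the unfolded protein and integrated stress responses were listed, and the array held 19 of them with probes averaged per gene. None of the 8 listed sensors and transducers was measured. Of the 19 genes 2 were called lower, Xbp1 and Eif2ak1, and 0 higher, against 4.18% of all 958 genes called and 2.92% called lower. The median estimate was -0.044 for the list and -0.024 for all genes. After the dye curve per block 1 of the 19 was called, Xbp1, against 5.32% of all genes, and the medians were -0.026 and -0.00092. Leaving out the 5 members, 1 of 14 genes was called on centred values and 0 of 14 after the curve.

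Eif2ak1, the heme-regulated kinase that phosphorylates the translation factor eIF2α, lies in block 3. Its deposited log ratios were -0.27, -1.02, -0.10 and -0.027, with array 2 far below the others. It had -0.36 ± 0.099 (adjusted p = 0.0415 among the 958 genes), and -0.039 ± 0.031 once the block curves were taken out (adjusted p = 0.557). Most of the first value was thus not present after the curve. It did not pass with block medians (-0.12, adjusted p = 0.201), nor without array 1, 2 or 3 (-0.36, -0.14 and -0.36, adjusted p = 0.159, 0.531 and 0.309), and it was at -0.58 without array 4 (adjusted p = 7.76e-11). Asns, the asparagine synthetase induced by ATF4, is also in block 3, and had -0.32 ± 0.11 (adjusted p = 0.119) and then -0.051 ± 0.027 (adjusted p = 0.343). As single probes, Xbp1, Eif2ak1 and Asns passed on centred values.

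The genes that act beside Dnajb9 and Calr in protein folding did not pass. P4hb, the protein disulfide isomerase, had deposited log ratios of -0.099, -0.29, -0.13 and -0.24, below 0 on 4 of 4 arrays. Its estimate was -0.19 ± 0.074 (adjusted p = 0.176), and -0.13 ± 0.030 once the block curves were taken out (adjusted p = 0.0546). Pdia4, a related isomerase, had -0.090 ± 0.075 and then -0.11 ± 0.039 (adjusted p = 0.726 and 0.178). Pdia3, which works with calreticulin on glycoproteins, had -0.044 ± 0.080 and then 0.027 ± 0.038. Creld2, the third measured gene with an ERSE, had deposited log ratios of -0.85, 0.75, -0.61 and 0.76, which part by dye. Its estimate was 0.0048 ± 0.073 (adjusted p = 0.994). Of the 3 measured genes with these letters, Xbp1 was therefore called and Calr and Creld2 were not.

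In translation control, Eif2s1, the α subunit of eIF2, had 0.026 ± 0.076, and Eif2b1, a subunit of its exchange factor, had -0.039 ± 0.076. Among targets of the integrated stress response, Slc7a5 (an amino acid transporter), Phgdh (serine synthesis) and Gadd45a (growth arrest) lay between -0.013 and 0.038. Vegfa, the vascular growth factor, is in block 4, and had -0.21 ± 0.078 (adjusted p = 0.174), then -0.026 ± 0.027 with the block curves taken out. Nfyb, the NF-Y subunit whose complex binds CCAAT, had -0.057 ± 0.075, and Ssr4, a subunit of the translocon-associated complex, had -0.034 ± 0.076. None of the genes in this paragraph passed on centred values or after the curve (adjusted p from 0.174 to 0.985 and from 0.372 to 0.928).

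**Figure D5:**
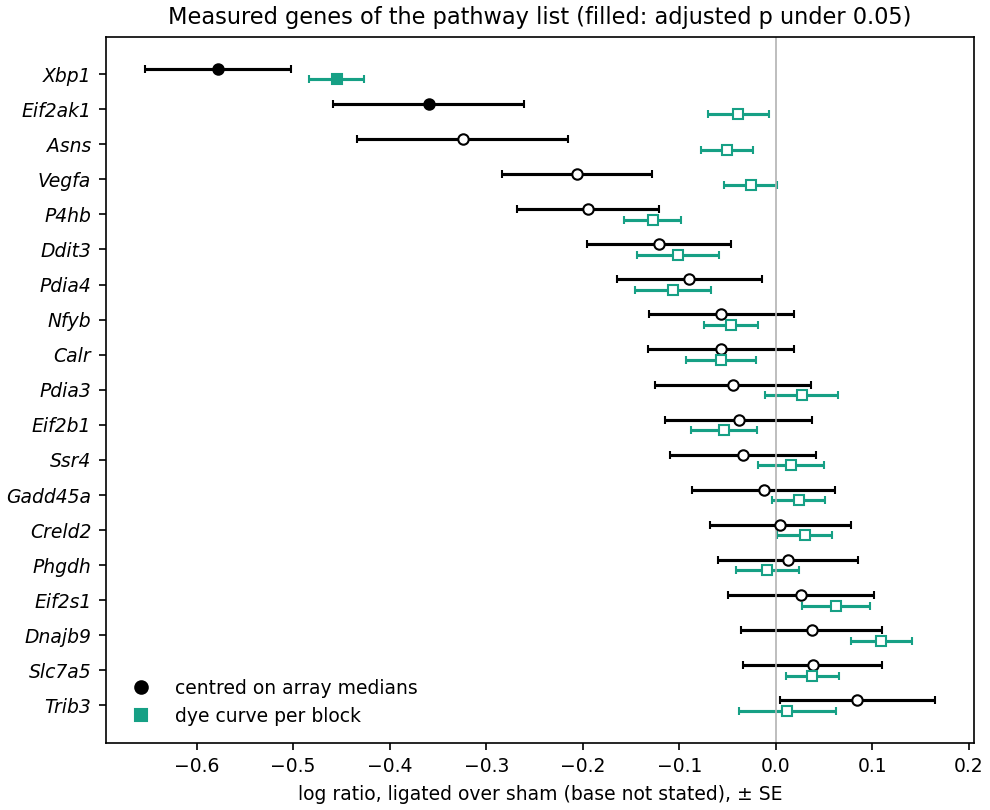
Estimate ± SE (log ratio, ligated over sham, base not stated) of the 19 measured pathway genes, centred on array medians (black) and after a dye curve per block (green), filled where the limma adjusted p among 958 genes was under 0.05. Xbp1 is lowest in both, and Eif2ak1, Asns and Vegfa, all of blocks 3 and 4, move to between -0.051 and -0.026 after the curve.

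The probes most like each member were sought as those of other named genes with the smallest root mean square difference over the 4 centred log ratios. For Xbp1 they were Cp (0.28), Scarb1 (0.28) and Ngfr (0.29), each farther off than the nearest probes of the other members (0.043 to 0.097). No named probe followed the values of Xbp1 as closely as such probes did for the other 4. The distance uses the same centred values as the estimate, which for Xbp1 was among the lowest of all probes. It is therefore not a separate trait of Xbp1. Cp, ceruloplasmin, was at -0.36 ± 0.084 at this probe, and at -0.29 ± 0.034 with the block curves taken out (adjusted p = 0.00243 and 0.000455). Scarb1, the HDL receptor, and Ngfr, a neurotrophin receptor, are in block 3 and passed on centred values (-0.48 and -0.44) but not after the curve (-0.22 and -0.17, adjusted p = 0.0702 and 0.400). For Ddit3 the nearest were Cyp2j10, Cyp2j3 and Hadha, for Dnajb9 they were Slc7a5, Cdh3 and Slc16a1, and for Calr they were Arf1, Chkb and Aoc1. For Trib3 they were Ppat, Adora2a and Ccl5, all 3 in block 1 with it. On the centred values used here, Trib3 had a dye effect of -0.014, against 0.47 to 0.72 for the other members. How much of a distance over 4 arrays comes from a shared dye effect or a shared block was not tested.

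Markers of other cells of the liver were few on the array. None of the 9 B and plasma cell or 8 macrophage markers listed was measured, so plasma cells, in which Xbp1 is high, could not be followed. With probes averaged, the 5 measured of 8 hepatocyte markers lay between -0.24 and -0.079, and none passed. The 1 neutrophil, 2 stellate cell, 1 cholangiocyte and 4 endothelial markers measured lay between -0.21 and 0.22, and none passed. As single probes, 1 probe of the stellate cell marker Col1a1 passed as higher (0.34, limma adjusted p = 0.00526). Its other probe did not (0.095, adjusted p = 0.812). After the dye curve per block 1 hepatocyte marker (Ttr, -0.17) was called lower and 1 stellate cell marker (Col1a1, 0.23) higher. Their part in the result for Xbp1 was not tested.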

How the data were processed

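Per the labels' protocols, poly(A) RNA of pooled liver was copied into Cy3- or Cy5-labelled cDNA and hybridised to 2-colour cDNA arrays. The authors deposited 1 log ratio per probe and array (1936 probes, 4 arrays, 0 missing values). For log base, scanner, background correction and normalization, nothing is given in the sources used here, and spot intensities were not used here, so the number of arrays limits the precision. Platform annotation symbols were brought up to date by gene ID with RefSeq's GRCr8 table: 1432 probes held 1 symbol (958 genes, 1429 matched), 19 several and 485 none. Arrays were centred on their medians and fitted with lmFit and eBayes (limma 3.58.1, R 4.3.3), with terms for operation and dye. In simulated arrays with 200 changed probes the fit recovered 97 of 100 changes of 0.5 and 100 of 100 of 1, with 10 false calls. The simulation gave all probes noise of the same spread and held no block shift. Its counts therefore do not carry over to the real arrays, where blocks 3 and 4 stood apart. Dye curves were robust local regressions (loess, span 0.75). Motifs were searched with Python 3.11.15. Named were the members, the measured list genes and the 3 nearest probes of each member. Synonyms that are another rat gene's own symbol were not matched. The members, lists, model and most alternatives were chosen with earlier results of these data known. The dye curve over the whole array, the Cy5 over Cy3 reading without centring and the fit without blocks 3 and 4 were added after seeing the data.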

Additional observations from a re-analysis of the deposited data

How the results depend on the processing

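Counts over all probes depended on the setting, against 18 higher and 93 lower in the fit on centred values. The number called higher was 3 without centring, 71 after the dye curve per block, 7 after the dye curve per array and 0 without the dye term or in the exact sign-flip test. The number called lower was 0 in each of these apart from the dye curve per block, and it was 49 with a robust prior and 47 with arrays scaled to equal spread. Without the dye term 5 probes had an unadjusted limma p under 0.05, and 0 did in the exact sign-flip test. In the Cy5 over Cy3 reading 816 were higher and 783 lower, and without centring 90 and 1414. Leaving out 1 array gave 6 to 39 higher and 4 to 202 lower. Xbp1 kept its direction but not its call without centring (-0.57, adjusted p = 0.133), after the dye curve per array (-0.54, adjusted p = 0.103), without the dye term (-0.58 ± 0.28, adjusted p = 1.00) and in the sign-flip test (-0.58), and it turned to 0.53 in the Cy5 over Cy3 reading. Without the dye term and in the sign-flip test the estimate of Xbp1 is the same mean, so its direction could not turn there. Leaving out 1 array gave -0.64 to -0.52. Turned signs of other members were 0.72 (Ddit3), 0.52 (Calr) and -0.014 (Trib3) in the Cy5 over Cy3 reading, -0.34 (Dnajb9) and -0.82 (Trib3) in that reading without centring, and -0.00013 (Trib3) with block medians. Leaving out 1 array gave -0.13 to 0.016 for Calr and -0.026 to 0.19 for Trib3. Of the pathway list, 0 genes were lower without centring, after the dye curve per array and without the dye term, 1 with block medians or the dye curve per block, and 1 to 4 without 1 array, against 2 on centred values. In the Cy5 over Cy3 reading 11 were higher and 2 lower, where 42.0% and 35.0% of all genes were. Without array 4, where 12.3% of all genes were lower, the 4 were Xbp1, Asns, Eif2ak1 and Vegfa. Without blocks 3 and 4 Xbp1 has no value, and the other members did not pass (-0.15 to 0.056). The cause of these changes was not tested. Each value is already a comparison of ligated with sham RNA within an array.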
